A study of Mus musculus with 4 samples.

Results

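The fetal mouse pancreas at embryonic stage E15.5 was compared with the stages sampled before and after it, E13.5 and E18.5. Each of 54532 Ensembl genes carried a deposited FPKM value (fragments per kilobase of exon, scaled to a fixed number of mapped fragments), and the 13559 genes at 1 FPKM or more in any of these 3 stages were taken as measured. For each gene the value at E15.5 on the log2(FPKM + 1) scale was set against the mean of both neighbours, and against each neighbour alone. Of the 54532 gene IDs, 54495 had a symbol in the GENCODE M21 annotation of mm10. Near the inclusion limit, 359 genes had a highest value between 1 and 1.1 FPKM, and 387 genes between 0.9 and 1 FPKM were left out.

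All samples came from wild-type C57BL/6 mice and were labelled as fetal pancreas, while the series text speaks of pancreatic epithelium. Total RNA was taken with TRI reagent from no fewer than 20000 cells. The labels gave 1 sample per stage (these 3 and the earlier E11.5) and neither sex nor number of fetuses, and the series text writes E18 for the last stage. No source used here says how epithelium was isolated.

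The pancreas grows as a branching epithelium whose tips and trunk take different paths. Tip cells carry Ptf1a and Cpa1 and go on to make acinar cells, the cells that secrete digestive enzymes, whereas the trunk, marked by Sox9, gives rise to ducts and, through cells that briefly make Neurog3, to the hormone cells of the islets. Acinar cells are among the most active protein makers of the body, so their programme includes ribosomes, amino acid supply and the endoplasmic reticulum (ER) as well as the enzymes themselves.

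Where 3 values are given for a gene, they follow the order of the stages, E13.5 first and E18.5 last. Each deposited value was the authors' mean, and the values behaved as means over 2 libraries per stage whose whole reads could be recovered for most genes that were not abundant. Estimated reads per library ranged from 1.37e+07 to 1.80e+07 over the 3 stages. Where both libraries were recovered, a value is given with the SD over n = 2 libraries and with limma's test, a linear model fitted across all genes. No label describes these libraries, so the SD and the p-values measure only the spread between them, which may be technical. The FPKM values summed to 348045, 537032 and 445642, and the estimated reads were 0.966, 1.26 and 1.08 times the FPKM denominators. Levels at E15.5 therefore depend on how the stages are scaled, and 4 other scalings were tried.

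A gene counted as above both neighbours when its log2 value at E15.5 was at least 1 higher than in each neighbour, a 2-fold step, with at least 5 FPKM at E15.5. It counted as below both when at least 1 lower than each, with at least 5 FPKM in both neighbours. By this rule 269 genes (1.98% of those measured) stood above both neighbours and 86 (0.634%) below both. By any amount, 4992 genes (36.8%) were above both and 4475 (33%) below both. The median difference to the mean of both neighbours over all measured genes was 0.01 on the log2 scale. The rule of size has no test. limma could test 11168 genes and called 2333 (20.9%) above both neighbours and 1967 (17.6%) below both at a Benjamini-Hochberg adjusted p under 0.05 in both contrasts. Among the 269 genes limma could test 193 and called 188 of them above, and among the 86 it could test 59 and called 58 below. The libraries were recovered from the same values that picked these genes, so this overlap is no independent check. The most abundant genes had too many reads for both libraries to be recovered, so they have values and no test.

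**Figure D1:**
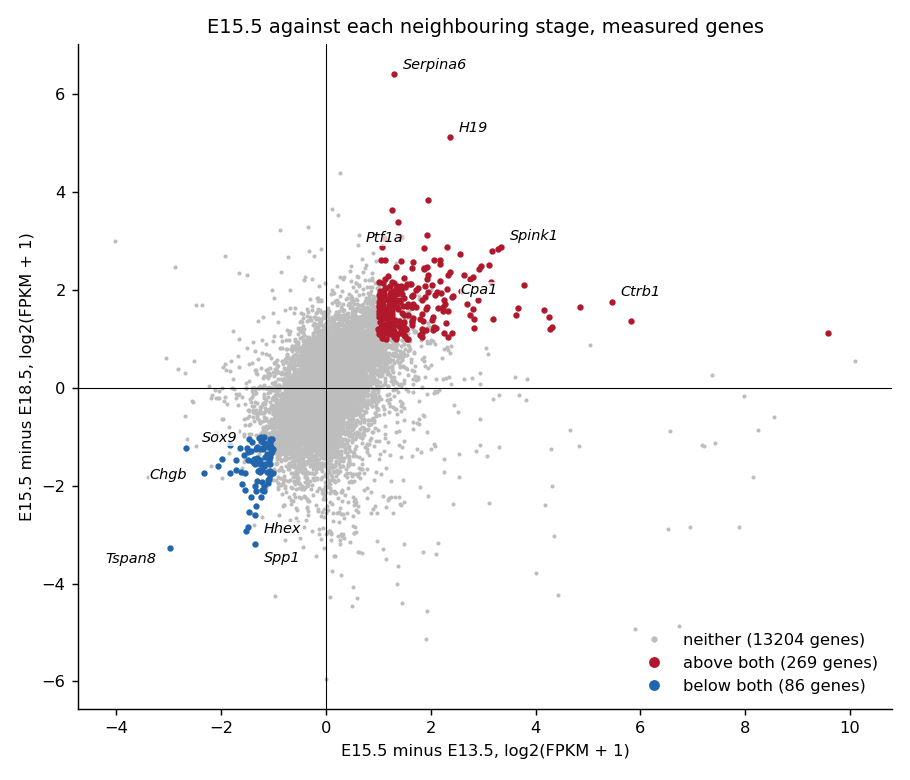
Each point is 1 of 13559 measured genes, with its difference E15.5 minus E13.5 on the horizontal axis and E15.5 minus E18.5 on the vertical axis, both in log2(FPKM + 1). The 269 red genes stood at least 1 above both neighbours and the 86 blue genes at least 1 below both, with Serpina6 and H19 farthest above E18.5 among the red genes and Tspan8 farthest below E13.5 among the blue ones.

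The split between higher and lower genes moved with the scaling. With every stage set to the same FPKM total, which shifted the median of all genes by -0.35, 80 genes were above and 430 below. With the same total after leaving out digestive enzymes the counts were 150 and 187 (shift -0.16), and with the same estimated reads 111 and 255 (shift -0.24). With median-of-ratios factors they were 246 and 99 (shift -0.04). limma's calls moved to 1101 above and 3606 below of 11168 genes with the same estimated reads. Calls below thus rise and calls above fall over all genes in that setting, and the counts of each list below are to be read beside this. Under all 5 scalings 80 genes remained above both neighbours and all 86 genes remained below both. The other scalings all lower E15.5 against both neighbours, so the 86 could hardly leave their group. Their staying below is therefore no check of them. Every gene named below as past the rule of size belongs to these 166 genes unless its sentence or paragraph says otherwise.

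Most of the measured transcription factors of the acinar programme, 8 of 12, were higher at E15.5 than in either neighbour. Ptf1a, the factor that the acinar fate requires (ENSMUSG00000026735, chr2:19445663-19447501, plus strand), had 31.2 ± 1.20, 122 ± 0.0137 and 21.3 ± 1.37 FPKM (SD, n = 2 libraries). Both E15.5 libraries lay above all 4 neighbouring libraries. The limma log2 difference was 1.94 (SE 0.0673, adjusted p = 6.15e-06) to E13.5 and 2.47 (SE 0.0673, adjusted p = 9.31e-07) to E18.5. Of the exon bases of Ptf1a, 40.4% are overlapped by another annotated gene, and no source used here states whether counting used strand. Rbpjl, its partner in the acinar PTF1 complex, had 34.1, 175 and 34.4 FPKM, 5.13-fold and 5.09-fold higher at E15.5 than at its neighbours. Bhlha15 (Mist1), which builds up the secretory machinery, had 7.33 ± 0.524, 42.9 ± 1.23 and 11.1 ± 1.15 FPKM, with limma differences of 2.4 (adjusted p = 4.92e-06) and 1.87 (adjusted p = 3.67e-06). Nr5a2, a nuclear receptor that works with PTF1, had 5.24 ± 0.494, 13.1 ± 0.00564 and 3.69 ± 0.444 FPKM. It was past the rule as deposited but not under every scaling.

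Of 13 acinar transcription factors on the list, 12 were measured, 3 stood below both neighbours by any amount and 4 passed the rule of size above both. The list's median difference to the mean of both neighbours was 0.92, against 0.01 for all genes, and 0.49 with the same FPKM total. limma tested 6 and called 5 above, or 3 with the same estimated reads, while Mnx1, a factor shared with endocrine cells, fell against both neighbours (10.3 ± 0.774, 5.55 ± 0.618 and 11.2 ± 0.037 FPKM). Gata4, active in tip cells, had 14.4, 24.8 and 3.68 FPKM. Xbp1, the factor of the unfolded protein response, had 174, 327 and 180 FPKM, above both neighbours by less than the rule requires. The list of 12 tip genes had a median difference of 2.09, with 7 members past the rule. Among them Reep5, a protein that shapes ER tubules, had 51.0, 402 and 70.8 FPKM.

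The digestive enzymes fell into genes that peaked at E15.5 and genes that were higher still at E18.5. Cpa1 (ENSMUSG00000054446, chr6:30639218-30645363, plus strand), the carboxypeptidase that marks tips and acinar cells, had 1582, 8148 and 1585 FPKM. It was 5.15-fold and 5.14-fold higher at E15.5 than at its neighbours. Ctrb1, a chymotrypsinogen and one of the most abundant transcripts of the sample, had 889, 38992 and 11499 FPKM. Clps, the cofactor of pancreatic lipase, had 553, 10525 and 3827 FPKM. Spink1, the trypsin inhibitor that protects the acinar cell from its own product, had 27.1, 283 and 37.5 FPKM, and had the largest difference to its nearer neighbour of the genes the naming rule takes (2.88 on the log2 scale). Try10, a trypsinogen, passed the rule as deposited but not under every scaling (0.710, 1299 and 595 FPKM), and 40.8% of its 50-base transcript windows also occur in other genes.

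For most of the enzyme list, E15.5 lay between its neighbours. Of 34 measured enzymes, 13 were above both by any amount, 21 were between and 0 were below both. The 13 are close to the share of all measured genes above both by any amount, 36.8%. The rule of size was passed by 6 of the 34 (17.6%), against 1.98% of all measured genes. The median difference was 4.37 to E13.5 and -1.01 to E18.5. Cel, the bile salt-dependent lipase, was between, with 148, 1472 and 3412 FPKM. Pnliprp1, a lipase-related protein, had 1485, 48884 and 26774 FPKM and so stood above both, by less than the rule requires. The enzymes together made up 1.92%, 23.8% and 17.4% of all FPKM. limma tested only 8 of the 34 and called 2 above both, close to its share over all tested genes (20.9%). In bulk samples, fewer cells of a type and less RNA per cell cannot be told apart, so these levels do not show how many acinar cells each stage held.

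**Figure D2:**
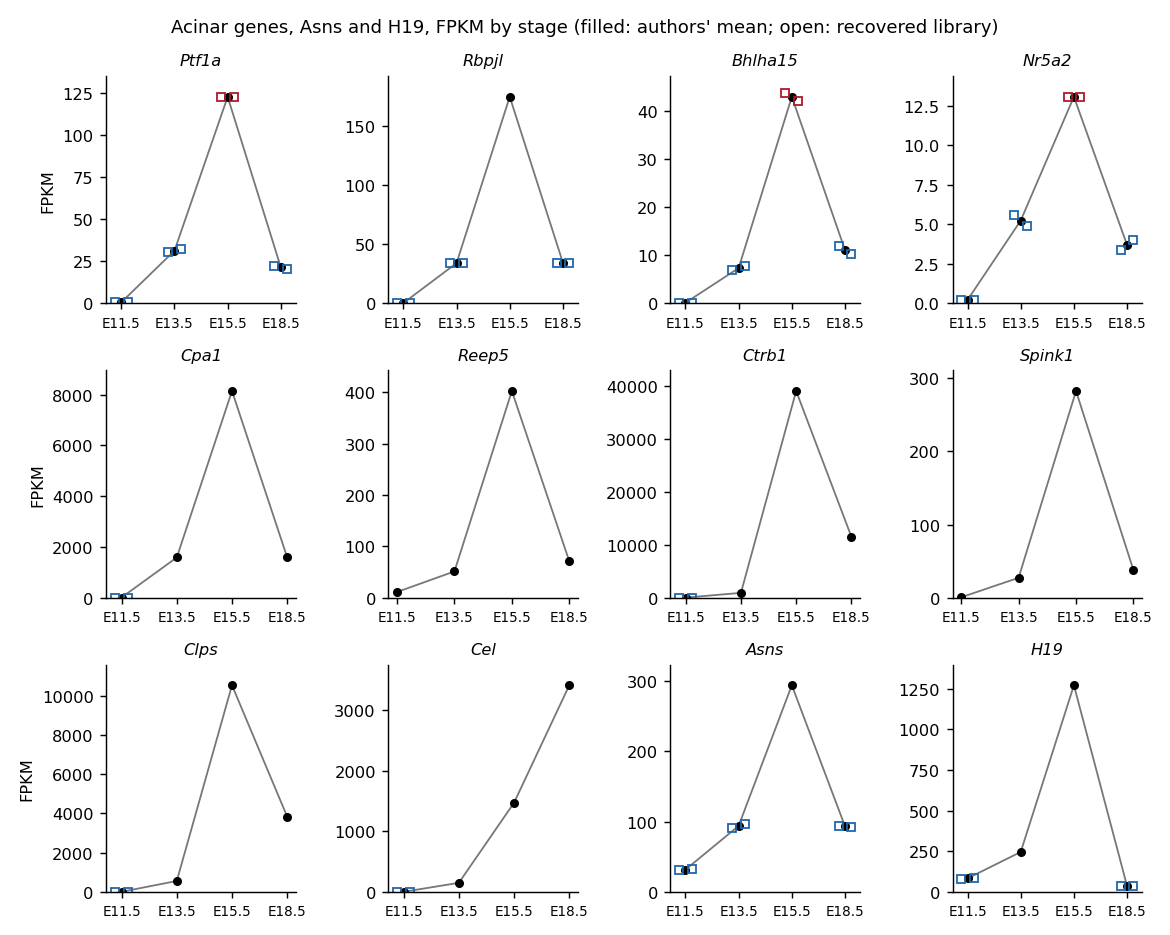
FPKM (vertical axis, from 0) by stage for 12 genes. Filled points are the authors' deposited mean and open squares the recovered libraries where both could be read. Cpa1 reached 8148 FPKM at E15.5 with 1582 and 1585 on either side, whereas Cel was highest at E18.5 with 3412 FPKM.

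The starts of Cpa1 and Ctrb1 are shown because both genes passed the rule and PTF1 is known to bind a pair of motifs at acinar genes. The RefSeq windows hold the 250 bases before the start on GRCm38.p6. Capitals mark TGGGAAA, or TTTCCCA where it lies on the other strand, the core that the Rbpj and Rbpjl subunits recognise. The Cpa1 window is chr6:30638968-30639217 on the plus strand and the Ctrb1 window chr8:111691011-111691260 on the minus strand, and both run 5′ to 3′ in the direction of the gene.
Cpa1: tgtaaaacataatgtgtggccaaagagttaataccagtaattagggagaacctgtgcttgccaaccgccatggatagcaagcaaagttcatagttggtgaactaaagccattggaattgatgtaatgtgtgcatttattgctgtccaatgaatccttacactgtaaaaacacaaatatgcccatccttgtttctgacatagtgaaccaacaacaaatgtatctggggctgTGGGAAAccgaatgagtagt
Ctrb1: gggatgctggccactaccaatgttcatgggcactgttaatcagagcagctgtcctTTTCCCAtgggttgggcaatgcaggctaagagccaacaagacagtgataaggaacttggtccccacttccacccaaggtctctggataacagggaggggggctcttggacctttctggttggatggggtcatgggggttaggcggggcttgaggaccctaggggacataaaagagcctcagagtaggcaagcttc
The motif began 20 bases before the start in Cpa1 and 195 bases before it in Ctrb1, there on the other strand. For the counts, a gene held a motif when any of its windows did. TGGGAAA on either strand was held by 7.77% of 27025 RefSeq genes and by 6.85% of the 146 genes above both neighbours that had a window. Among members of the acinar lists it was in 4 of 11 above both (Aqp8, Cpa1, Ctrb1 and Nupr1) and in 6 of 43 that were not. The E-box CACCTG, which the Ptf1a subunit recognises, was searched for on both strands as well. It was held by 19.4% of all RefSeq genes, by 5 of the 11 (Bhlha15, Nr5a2, Rbpjl, Serpini2 and Tmed6) and by 23 of the 43. Other forms of the E-box, such as the cagctg shortly before the marked stretch of Ctrb1, were not searched for. A match is a match of letters only, and these counts carry no test.

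Genes that serve secretion in acinar cells divided in the same way. Of 24 measured accessory genes 10 were above both neighbours by any amount, against 36.8% of all measured genes, 1 was below both and 13 lay between. The rule was passed by 7 (29.2%, against 1.98% of all). The median difference was 0.89, or 0.49 with the same FPKM total. limma called only 2 of 11 tested genes above both, against 20.9% of all tested genes, and 1 with the same estimated reads. Nupr1, a small stress-response protein of acinar cells, had 56.4, 784 and 180 FPKM. Serpini2, a pancreatic serpin, had 79.8, 607 and 174 FPKM, and Tmed6, a cargo receptor of the early secretory path, had 107, 727 and 258 FPKM. Aqp8, a water channel, was nearly silent at E13.5, with 0.655 ± 0.108, 92.0 ± 4.60 and 35.0 ± 1.40 FPKM. Its limma differences were 5.81 (adjusted p = 1.56e-06) and 1.37 (adjusted p = 1.21e-04). Erp27, a protein of the ER lumen, had 6.71, 152 and 63.9 FPKM and was past the rule as deposited but not under every scaling. Gnmt, which consumes methyl groups and is abundant in acinar cells, had 1.71 ± 0.0822, 37.4 ± 0.615 and 44.5 ± 1.12 FPKM, and so stood between.

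Genes of the ER itself showed smaller differences. For 43 genes of ER folding and the unfolded protein response, 31 stood above both neighbours by any amount, 5 below both, and 3 passed the rule, with a median of 0.48. limma called 7 of 18 above and 0 below, but 2 above and 1 below with the same estimated reads, and the median was 0.06 with the same FPKM total. Edem1, which hands misfolded glycoproteins to degradation, had 11.49 ± 0.123, 60.5 ± 1.05 and 23.4 ± 0.168 FPKM, with limma differences of 2.30 (adjusted p = 7.73e-07) and 1.33 (adjusted p = 1.39e-06). Edem2, of the same family, had 32.9, 240 and 90.4 FPKM. Hspa5 (BiP), the main chaperone of the ER, had 642, 604 and 766 FPKM and so was lower at E15.5 than on either side. For 61 measured genes of translocation and early trafficking the median was 0.38 as deposited and -0.03 with the same FPKM total, so its direction rests on the scaling. Krtcap2, a subunit of oligosaccharyltransferase, had 36.3 ± 4.33, 175 ± 1.41 and 55.2 ± 1.53 FPKM. Sec61b, a subunit of the channel through which secreted proteins enter the ER, had 87.8 ± 11.9, 249 ± 4.15 and 117 ± 2.77 FPKM, past the rule as deposited but not under every scaling.

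Messenger RNAs for the cytosolic ribosome were higher at E15.5 than on either side. Of 82 ribosomal protein genes, 81 were above both neighbours by any amount, 0 were below both and 20 passed the rule. The median difference was 0.87 to E13.5 and 1.54 to E18.5. limma called 32 of 34 tested genes above both and 25 with the same estimated reads. The median to the mean of both neighbours was 1.19 as deposited and 0.76 with the same FPKM total, and it kept its sign under all 5 scalings, but only 1 of the 20 genes passed the rule under every scaling. That gene was Rps27l, a p53-induced relative of Rps27, with 117, 440 and 103 FPKM. Rpl41, the smallest ribosomal protein, had 95.4 ± 12.6, 269 ± 15.1 and 74.9 ± 0.753 FPKM, with limma differences of 1.49 (adjusted p = 4.26e-05) and 1.83 (adjusted p = 7.72e-06). Rplp1, an acidic stalk protein, had 158 ± 20.6, 379 ± 3.59 and 127 ± 2.97 FPKM. Rpl7a had 52.0 ± 27.0 FPKM at E15.5, where its libraries stood at 32.8 and 71.1, and its difference to E13.5 (limma adjusted p = 0.0367) was lost with the same estimated reads. Sharing of sequence limits these values: in Rplp1 60.0% of the 50-base windows occur in other genes.

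Factors that act with the ribosome followed. Of 12 elongation and poly(A)-binding factors, a list chosen after its values were seen, 11 stood above both neighbours by any amount. Pabpc4, a poly(A)-binding protein, had 10.6 ± 0.126, 51.4 ± 1.14 and 7.58 ± 0.727 FPKM, with limma differences of 2.17 (adjusted p = 3.39e-06) and 2.61 (adjusted p = 7.58e-07), and shares 54.5% of its windows with other genes. Eef2, the factor that moves the ribosome along the message, had 155, 450 and 196 FPKM, and Pabpc1 had 28.4, 84.8 and 25.9 FPKM. Both passed the rule as deposited but not under every scaling. Genes of nucleolar ribosome assembly differed from the ribosomal proteins. Their median was 0.04 to E13.5 and 0.87 to E18.5, with 0 of 46 past the rule, so E15.5 was close to E13.5 there. Npm1, an abundant nucleolar protein, had 500, 542 and 162 FPKM. The 22 aminoacyl-tRNA synthetases had a median of 0.21 as deposited and -0.21 with the same FPKM total.

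Mitochondrial genes stood higher by a smaller step. Of 77 nuclear-encoded subunits of oxidative phosphorylation, 70 were above both neighbours by any amount and 2 passed the rule, with a median of 0.68. limma called 40 of 46 above and 2 below, Ndufs1 and Sdha, and 30 above with the same estimated reads. Uqcr11, a subunit of complex III, had 46.9 ± 10.5, 108 ± 8.13 and 44.8 ± 1.14 FPKM, and Atp5g1, a subunit of the ATP synthase ring, had 40.5 ± 3.83, 93.0 ± 3.31 and 35.2 ± 1.75 FPKM. Neither passed the rule under every scaling. Of 77 mitochondrial ribosomal proteins 67 were above both by any amount (median 0.51), and limma called 37 of 55 above both, but 10 with the same estimated reads. The 12 measured messenger RNAs made in the mitochondrion had a median of 0.89, or 0.44 with the same FPKM total. Among these gene groups the difference was thus larger for cytosolic ribosomal proteins than for mitochondrial ones. With the same FPKM total the medians were 0.76 for cytosolic ribosomal proteins, 0.23 for oxidative phosphorylation and 0.08 for mitochondrial ribosomal proteins. That scaling moves lists at such levels by nearly the same amount, so the kept order is no check of it.

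Ribosomal RNA moved in the same direction in these libraries. CT010467.1, annotated as ribosomal RNA, had 67.1, 665 and 92.4 FPKM. mt-Rnr2, the large ribosomal RNA of mitochondria, had 468, 2367 and 793 FPKM, and mt-Rnr1, the small one, had 26.3 ± 3.53, 79.2 ± 0.134 and 38.9 ± 0.0383 FPKM, the last not past the rule under every scaling. These 3 genes were chosen after their values were seen. Lars2, the leucyl-tRNA synthetase of mitochondria, had 14.5, 69.0 and 14.3 FPKM. How far the share of ribosomal RNA in each library bears on the differences of other genes was not tested.

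**Figure D3:**
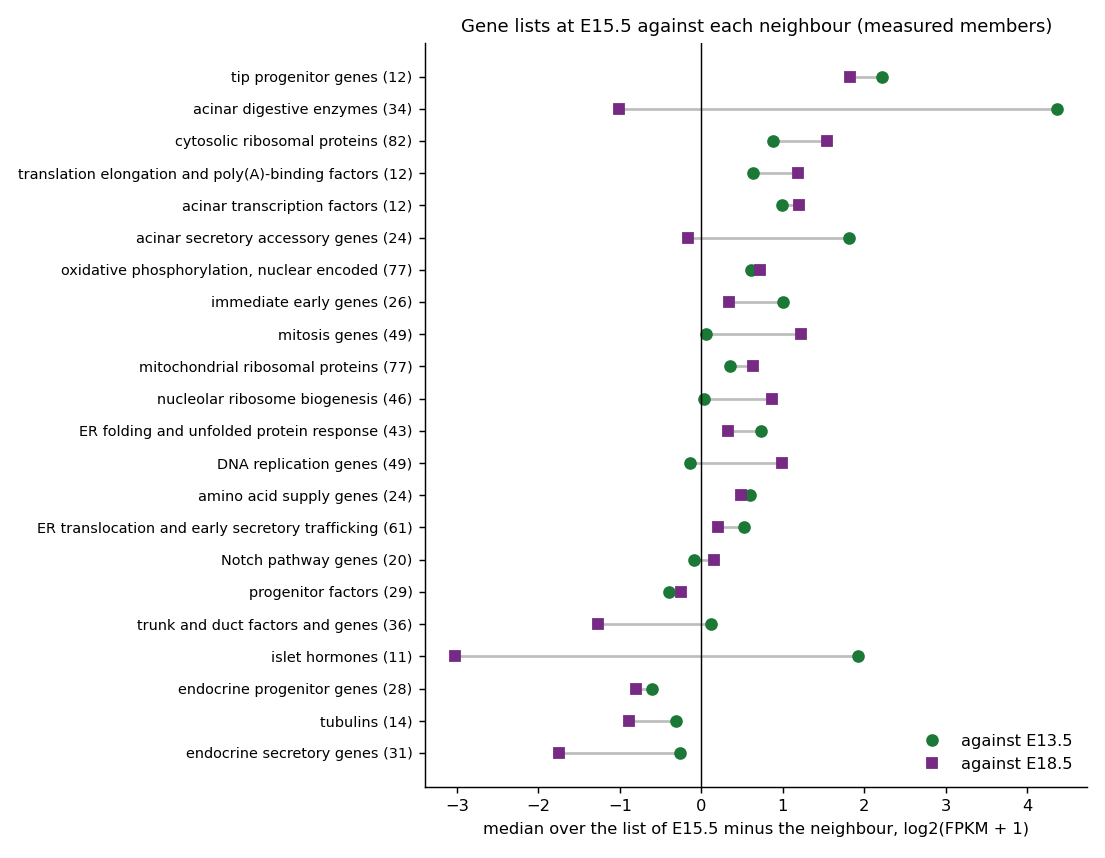
Median of E15.5 minus E13.5 (circles) and of E15.5 minus E18.5 (squares), in log2(FPKM + 1), for 22 gene lists, with the number of measured members in brackets. The cytosolic ribosomal proteins lie right of 0 against both neighbours (0.87 and 1.54) and the endocrine progenitor genes left of 0 against both (-0.61 and -0.81), while digestive enzymes and islet hormones lie on opposite sides of 0.

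Several genes of amino acid and nitrogen metabolism passed the rule. Asns, the synthetase that makes asparagine and a classical target of amino acid shortage signalling, had 94.0, 294 and 93.4 FPKM. The nutrient response element TGATGAAAC, searched for on both strands, was found in the window before the start of Asns. Of all RefSeq genes, 0.189% held it in any of their windows. Of 24 measured genes of amino acid supply, 16 stood above both neighbours by any amount, 4 passed the rule above both and 1 below both, with a median of 0.41. That median was 0.04 with the same FPKM total and 0.15 with the same estimated reads. Slc7a1, which brings in cationic amino acids, had 3.40 ± 0.122, 8.34 ± 0.809 and 3.08 ± 0.0793 FPKM, and Cth and Cbs, which turn homocysteine into cysteine, had 11.7, 30.8 and 8.44 FPKM and 14.8, 83.3 and 37.8 FPKM. These 3 passed the rule as deposited but not under every scaling. The transporter Slc38a5, which carries glutamine and other small neutral amino acids, ran the other way with 765, 120 and 280 FPKM. It was 6.40-fold lower at E15.5 than at E13.5 and 2.34-fold lower than at E18.5.

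Enzymes of creatine, glycine and sulphur amino acids were grouped after their values were seen. Of the 13, 7 passed the rule and 10 were above both neighbours by any amount. Gamt, the last step of creatine synthesis, had 130, 479 and 65.5 FPKM. Gcat, which splits a breakdown product of threonine into glycine, had 12.9 ± 0.164, 52.0 ± 4.25 and 10.3 ± 1.08 FPKM, with limma differences of 1.93 (adjusted p = 9.60e-06) and 2.23 (adjusted p = 2.08e-06). For Gcat, 47.5% of exon bases are overlapped by another gene. Pipox, which oxidises pipecolic acid and sarcosine, had 3.56 ± 0.115, 15.2 ± 0.589 and 4.65 ± 0.187 FPKM. Gatm, which carries out the step before Gamt, was not above both neighbours: it had 2.44 ± 0.159, 25.3 ± 0.073 and 57.8 ± 2.26 FPKM. Of these enzymes of creatine synthesis, Gamt was highest at E15.5 and Gatm at E18.5.

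Genes of detoxification and metal binding also passed the rule. Gstm1, a glutathione transferase of the mu class, had 232, 2028 and 353 FPKM, and Gstm3 had 14.6, 77.0 and 9.65 FPKM. All 7 mu-class genes, grouped after their values were seen, were above both neighbours as deposited, with a median of 1.18, and 2 passed the rule. They are close copies of each other: 18.9% of the windows of Gstm1 and 28.8% of those of Gstm3 occur in other genes. The metallothioneins Mt1 (43.3, 404 and 152 FPKM) and Mt2 (2.09 ± 0.114, 14.3 ± 4.71 and 2.75 ± 0.641 FPKM) bind zinc and copper. For Mt2, 73.5% of exon bases are overlapped by another gene. Also past the rule were Clca3a1, of the calcium-activated chloride channel regulator family, with 2.5 ± 0.332, 30.6 ± 0.150 and 3.56 ± 0.261 FPKM, and Tmem97, the sigma-2 receptor, with 439, 1799 and 417 FPKM. Dhx34, an RNA helicase of nonsense-mediated decay, had 9.21 ± 0.215, 89.3 ± 0.916 and 19.2 ± 0.687 FPKM, with limma differences of 3.14 (adjusted p = 7.73e-07) and 2.16 (adjusted p = 8.65e-07).

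H19 and Serpina6 stood far above E18.5. H19 (ENSMUSG00000000031, chr7:142575529-142578143, minus strand), a maternally expressed long noncoding RNA of growing fetal tissue, had 245, 1271 and 35.4 FPKM. It was 5.18-fold higher than at E13.5 and 35.9-fold higher than at E18.5. Igf2, its imprinted neighbour, was near the limit of measurement, with 1.04 ± 0.0768, 0.766 ± 0.0595 and 0.105 ± 0.0560 FPKM. The overlap of Igf2 exons with other annotated genes was not counted, so reads lost to such overlap cannot be judged. Among 36 measured imprinted genes the median was -0.04 and 2 passed the rule, H19 above and Nap1l5, a nucleosome assembly protein, below (8.32 ± 0.193, 2.08 ± 0.476 and 11.1 ± 0.280 FPKM). Serpina6 (ENSMUSG00000060807, chr12:103646630-103657212, minus strand), the corticosteroid-binding globulin of plasma, had 1389, 3437 and 39.3 FPKM. It passed the rule as deposited, but not under every scaling, because its step from E13.5 was only 2.47-fold. Gc and Vtn, other plasma proteins known from liver, had 401, 486 and 22.0 FPKM and 256, 278 and 21.1 FPKM, and were close to their E13.5 level. The 15 hepatocyte-defining markers, Gc and Vtn among them, summed to 699, 798 and 55.7 FPKM. Afp, the fetal counterpart of albumin, had 27.1, 21.2 ± 0.194 and 1.28 ± 0.169 FPKM, whereas Alb (0.567 ± 0.153, 2.45 ± 0.429 and 4.96 ± 0.0970 FPKM) and Fgb (1.25 ± 0.0565, 0.395 ± 0.0560 and 0.877 ± 0.0947 FPKM) stayed under 5 FPKM in all 3 stages. The part of liver cells in these values was not tested.

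Several genes of the trunk and duct programme stood below both neighbours. Sox9 (ENSMUSG00000000567, chr11:112782224-112787760, plus strand), the factor of trunk and duct cells, had 126, 49.7 ± 1.57 and 120 FPKM, so that it was 2.54-fold and 2.42-fold lower at E15.5. Hhex, a homeobox factor of ducts, had 77.7, 29.7 and 186 FPKM. Spp1, the secreted duct protein osteopontin, had 4539, 1787 and 16321 FPKM.

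Tspan8, a membrane protein of the tetraspanin family found on duct cells, had the deepest dip of the 86 genes. Its E13.5 libraries had 13.7 and 14.9 FPKM, its E15.5 libraries 1.03 and 0.865 FPKM, and its E18.5 libraries 18.2 and 17.7 FPKM. It was 15.1-fold and 18.9-fold lower at E15.5, with limma differences of -2.97 (SE 0.0713, adjusted p = 1.88e-06) and -3.28 (SE 0.0713, adjusted p = 7.12e-07). Slc2a2, the glucose transporter GLUT2 of progenitors and beta cells, had 6.25 ± 0.155, 1.6 ± 0.121 and 17.7 ± 0.280 FPKM, with limma differences of -1.48 (adjusted p = 6.91e-06) and -2.85 (adjusted p = 5.65e-07). The trunk and duct list did not move as one. Of its 36 measured genes 13 were below both neighbours by any amount, 5 above both and 18 between, and 5 passed the rule below and 1 above. Over all measured genes 33% were below both and 36.8% above both by any amount, and 0.634% passed the rule below. The list's median was 0.12 to E13.5 and -1.27 to E18.5. limma called 5 of 21 below and 3 above, or 8 below and 1 above with the same estimated reads. Over all 11168 tested genes it called 17.6% below and 20.9% above, or 3606 below and 1101 above with the same estimated reads. The list's calls below were thus not far from those of all genes. Cldn10, a claudin that was past the rule above both neighbours, had 111, 349 and 142 FPKM. Krt19, the duct keratin, had 78.7 ± 1.47, 84.6 ± 3.02 and 209 FPKM.

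**Figure D4:**
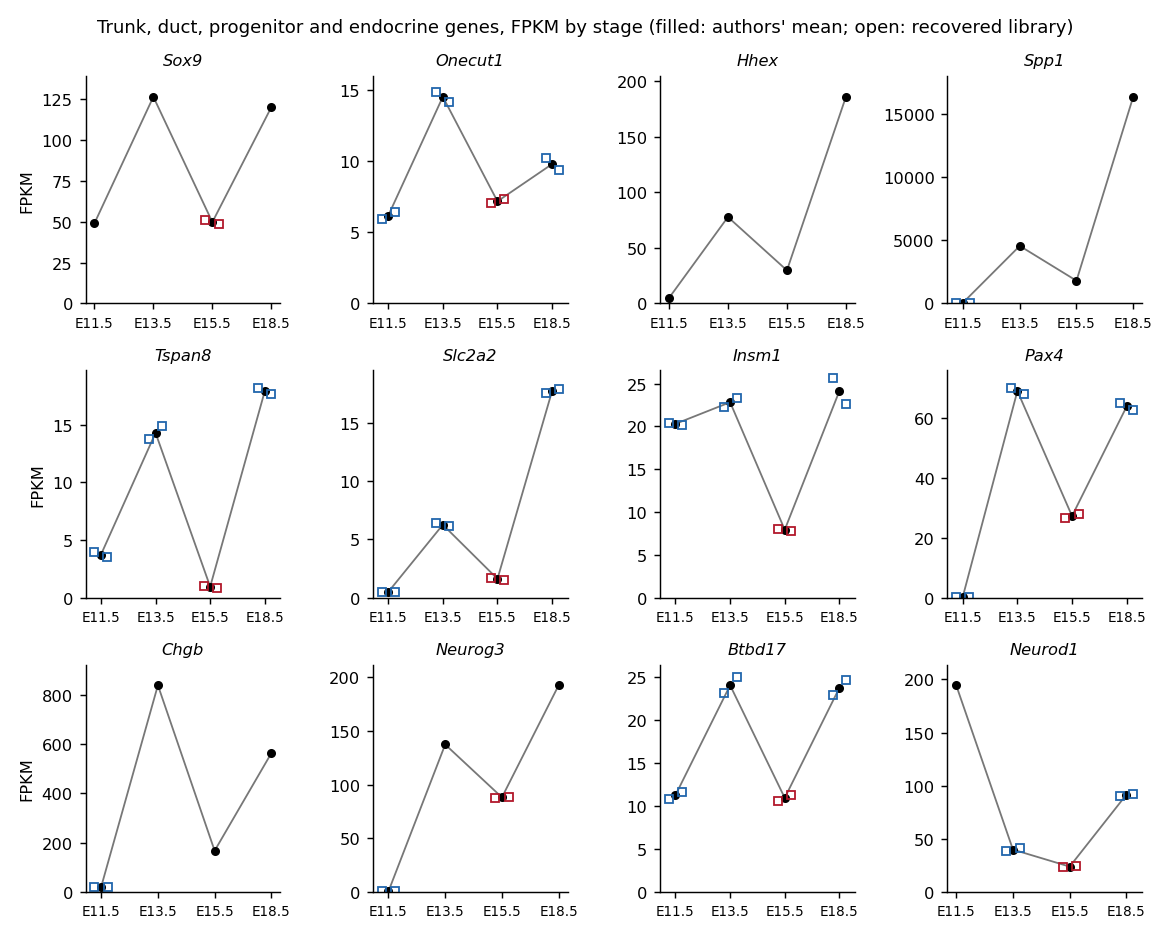
FPKM (vertical axis, from 0) by stage for 12 trunk, duct, progenitor and endocrine genes. Filled points are the authors' deposited mean and open squares the recovered libraries where both could be read. Tspan8 was at 0.948 FPKM at E15.5 against 14.3 and 17.9 on either side, and all 12 genes were lower at E15.5 than in either neighbour.

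Several factors of the multipotent epithelium were lower at E15.5 by smaller steps. Of 29 progenitor factors 17 were below both neighbours by any amount and 6 above, and limma called 9 of 19 below and 1, Ptf1a, above. Pdx1, which the whole organ requires, had 81.2 ± 1.47, 62.2 ± 4.35 and 74.5 ± 2.17 FPKM, with limma differences of -0.38 (adjusted p = 9.98e-03) and -0.26 (adjusted p = 0.0372). Foxa2, a pioneer factor of endoderm, had 49.5 ± 0.431, 40.6 ± 1.06 and 59.2 ± 0.342 FPKM. Onecut1, which acts upstream of endocrine fate, had 14.5 ± 0.506, 7.19 ± 0.186 and 9.81 ± 0.562 FPKM. Another gene overlaps 52.8% of its exon bases, and 52.3% of its 50-base windows occur in other genes. Hes1, the Notch target in progenitors, ran against these with 76.9, 157 and 82.2 FPKM, and Notch1 had 2.59 ± 0.116, 5.50 ± 0.0915 and 1.37 ± 0.111 FPKM, with limma differences of 0.85 (adjusted p = 1.07e-04) and 1.45 (adjusted p = 5.54e-06). Over 20 measured Notch pathway genes the median was -0.01, with 7 above both neighbours and 7 below both.

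Genes of endocrine progenitors mostly stood below both neighbours. Of 28 genes 20 were below both neighbours by any amount and 2 above, against 33% and 36.8% of all measured genes. The median was -0.69, and limma called 13 of 20 below and 1 above, against 17.6% and 20.9% of all tested genes. With the same estimated reads it called 15 below and 0 above, against 3606 below and 1101 above of all 11168. Insm1, a zinc finger factor of new endocrine cells, had 22.8 ± 0.756, 7.93 ± 0.170 and 24.1 ± 2.08 FPKM, with limma differences of -1.42 (SE 0.0616, adjusted p = 1.11e-05) and -1.49 (SE 0.0616, adjusted p = 3.37e-06). Pax4, which favours beta and delta cells, had 68.8 ± 1.28, 27.2 ± 0.920 and 63.7 ± 1.70 FPKM. Both had lower values in each E15.5 library than in any neighbouring one. Btbd17, a gene of the same list, had 24.0 ± 1.34, 10.9 ± 0.539 and 23.7 ± 1.21 FPKM. Neurog3, the factor that starts the endocrine path, had 137, 88.1 ± 1.11 and 193 FPKM, lower than both by less than the rule requires. Neurod1, a target of Neurog3, had 39.8 ± 2.16, 23.7 ± 0.925 and 91.5 ± 1.30 FPKM.

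The machinery of hormone secretion was low at E15.5 too. Of 31 endocrine secretory genes 20 were below both neighbours by any amount, 0 above both and 11 between. The median was -0.27 to E13.5 and -1.75 to E18.5, and limma called 13 of 20 below both. Chgb (ENSMUSG00000027350, chr2:132781278-132795079, plus strand), a granin of the dense-core granules in which hormones are stored, had 839, 167 and 563 FPKM. It was 5.03-fold and 3.38-fold lower at E15.5. The related Chga had 114, 99.5 and 1083 FPKM and so was near its E13.5 level. The hormones themselves mostly lay between their neighbours: 10 of 11 were between and 1 was below both. Ins2 had 29.8, 631 and 5121 FPKM and Ins1 8.49, 153 and 2103 FPKM. Gcg, glucagon, was the exception with 2467, 1420 and 15154 FPKM, below both neighbours by less than the rule requires. The digestive enzymes' share of all FPKM was highest, at 23.8%, in the stage where these values were low, and its part in the result was not tested. With the same total after leaving out those enzymes, the endocrine progenitor median was -0.87 and the endocrine secretory median -1.32. That scaling lowers all genes at E15.5 (median of all genes 0.01 to -0.15), so these lower medians do not test the enzymes' part.

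Other genes below both neighbours had no common list. Tuba1a, an alpha tubulin of dividing and neural cells, had 298, 90.8 and 291 FPKM, but 72.9% of its windows occur in other genes. Tubb4a (15.6 ± 0.271, 4.05 ± 0.239 and 13 ± 1.08 FPKM) and Tubb2b (11.1 ± 0.176, 3.58 ± 0.837 and 8.81 ± 1.33 FPKM) are beta tubulins. Of 14 measured tubulins, a list chosen after its values were seen, 8 were below both neighbours and 3 above. Mycn, the Myc family member of early organ growth, had 13 ± 1.21, 2.54 ± 0.588 and 8.71 ± 0.519 FPKM, with limma differences of -1.99 (adjusted p = 3.22e-05) and -1.46 (adjusted p = 4.96e-05). Ccnd1, the cyclin of the first growth phase, had 32.8 ± 0.0710, 15.6 ± 0.166 and 39.5 ± 0.875 FPKM. Arg1, arginase, had 23.2 ± 1.25, 7.29 ± 0.209 and 34.4 ± 2.41 FPKM, and Crp, a pentraxin known from liver, had 11.1 ± 0.381, 1.89 ± 0.542 and 7.79 ± 0.314 FPKM. Pla2g2d, a secreted phospholipase, had 23.0 ± 0.693, 5.71 ± 0.417 and 21.4 ± 0.852 FPKM. Cotl1, an actin-binding protein, had 37.6, 12.7 and 37.0 FPKM, Pik3ap1, an adaptor of phosphoinositide 3-kinase, had 16.7, 5.16 and 45.9 FPKM, and Pamr1 had 18, 5.87 and 39.0 FPKM.

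Receptors and targets of fibroblast growth factor stood partly in this group. Fgfr4, a receptor, had 15.49 ± 0.0377, 4.95 ± 0.673 and 11.3 ± 0.0675 FPKM, with limma differences of -1.47 (adjusted p = 3.08e-05) and -1.06 (adjusted p = 5.30e-05). Etv4, a transcription factor induced by that signal, had 2.05 ± 0.0362, 0.260 ± 0.0320 and 2.23 ± 0.130 FPKM, too low for the rule of size, and limma called it below both. Over the FGF and EGF list of 26 measured genes 14 were below both neighbours and 7 above, against 33% and 36.8% of all measured genes. The median was -0.35, and limma called 8 of 23 below and 4 above, against 17.6% and 20.9% of all tested genes. With the same estimated reads it called 11 below and 1 above. In that setting its calls below also rose over all genes, to 3606 of 11168, so the rise is not particular to this list. Sfrp5, a secreted antagonist of Wnt, had 15.4 ± 0.137, 0.560 ± 0.0385 and 4.49 ± 0.658 FPKM. It missed the rule because its E18.5 value was under 5 FPKM, although limma called it below both.

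Genes of cell division were close to E13.5 and above E18.5. The 49 mitosis genes had a median of 0.05 to E13.5 and 1.22 to E18.5, and 49 measured DNA replication genes -0.14 and 0.99. Against the mean of both neighbours the replication median was 0.41 as deposited and -0.02 with the same FPKM total. Mki67, the proliferation marker, passed the rule as deposited with 8.45 ± 0.0717, 21.3 ± 0.133 and 4.72 ± 0.591 FPKM, but not under every scaling. Top2a, of mitotic chromosomes, had 21.4 ± 0.744, 30.2 ± 0.173 and 7.52 ± 0.190 FPKM, with limma differences of 0.47 (adjusted p = 1.40e-04) and 1.87 (adjusted p = 7.12e-07), and its call above both was lost with the same estimated reads. The immediate early genes, which respond quickly to many stimuli, had a median of 1.01 to E13.5 and 0.34 to E18.5. Of 26 measured, 17 were above both neighbours and 1 below, and limma called 9 of 15 above, or 6 above and 1 below with the same estimated reads. Atf3 had 17 ± 0.739, 92.8 ± 2.15 and 56.4 ± 0.356 FPKM, and Fos had 169, 646 and 706 FPKM.

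Markers of other cells were present at different levels. Erythroid genes summed to 283, 318 and 622 FPKM, and limma called 3 of 7 above both. Among them the alpha globin Hba-a1 had 80.2 ± 4.68, 160 ± 2.38 and 293 ± 1.06 FPKM, and the beta globin Hbb-bs had 32.8 ± 0.236, 104 ± 4.59 and 274 ± 6.02 FPKM, so both stood between their neighbours. The part of blood cells in the other results was not tested. Of 18 leukocyte markers 9 were measured, and their FPKM summed over the list to 26.6, 209 and 145. C1qa, a complement subunit of macrophages, made up most of the E15.5 sum with 13.7 ± 1.37, 181 ± 1.35 and 63.9 ± 3.68 FPKM. Its partner subunits did not follow: C1qb had 1.28 ± 0.148, 1.20 ± 0.455 and 9.70 ± 0.310 FPKM and C1qc 0.744 ± 0.107, 0.973 ± 0.433 and 5 ± 0.836 FPKM. The pan-leukocyte gene Ptprc and the macrophage receptor Csf1r stayed below 1 FPKM in all 3 stages. Summed mesenchyme markers had 141, 84.0 and 111 FPKM, with 12 of 28 below 1 FPKM. Summed endothelium markers had 16.8, 22.0 and 16 FPKM, with 16 of 19 below 1 FPKM and 5 at 0 at E15.5. Mesothelium markers summed to 81.1, 85.9 and 212 FPKM, nearly all of it Krt19, which ducts also express. Neural crest, glia and neuron markers summed to 32.5, 30.8 and 70.1 FPKM, and their only member past the rule was Ret, a receptor of nerve growth, as deposited but not under every scaling (2.96 ± 0.183, 8.36 ± 0.179 and 2.32 ± 0.0787 FPKM).

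The sex-linked genes, looked at after the other results, differed between the stages. Xist, the RNA of the inactive X chromosome, had 4.05 ± 0.0161, 12.7 ± 0.349 and 2.41 ± 0.0572 FPKM. The Y-linked Eif2s3y had 9.69 ± 0.255, 3.58 ± 0.567 and 16.3 ± 0.258 FPKM, and Ddx3y 4.75 ± 0.135, 2.04 ± 0.219 and 6.35 ± 0.542 FPKM. limma called Xist above both neighbours and both Y-linked genes below both. The mix of sexes among the pooled cells cannot be told apart from the stage in this design.

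The genes above both neighbours differed from all measured genes in several features. Protein-coding genes among them had a median exon length of 2709 bases, against 4197 for all measured protein-coding genes and 3351 for those below both. Processed pseudogenes made up 12.6% of the 269, against 5.55% of all measured genes. Small RNA genes were 18 of the 269, against 298 of all 13559. Of the 269 genes 29.4% reached 100 FPKM, against 14% of the 86 and 6.66% of all. The rule asks for at least 5 FPKM and the measured genes for 1 FPKM, so higher levels are partly built into the rule. The earlier stage E11.5, which the rule did not use, was lower than E15.5 in 268 of the 269. Of the 86 genes below both, 57 were lower at E15.5 than at E11.5 as well, and 26 had their highest value of all 4 stages at E11.5. Over all 13559 measured genes E11.5 was the highest of the 4 stages in 3844, a similar share. E15.5 was the highest in 4279 and the lowest in 3240, where 4992 genes were above and 4475 below both neighbours by any amount. A step of at least 4-fold to the nearer neighbour was reached by 22 genes above and by 1 below, Tspan8. Closest to the limit of the rule, Wasf2 stood 1.0 above its nearer neighbour and Suz12 0.99, and below both Vill stood -1.0 and Tspan14 -0.98 from theirs.

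**Figure D5:**
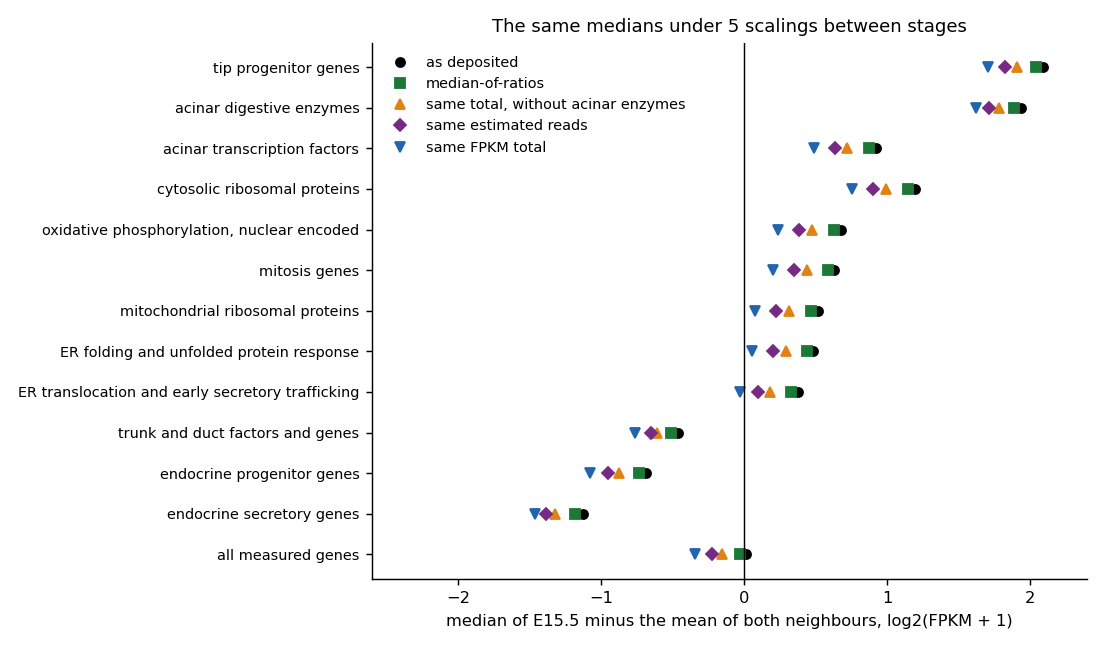
Median over each list of E15.5 minus the mean of both neighbours, in log2(FPKM + 1), for 12 lists and for all measured genes under 5 scalings between stages. All symbols shift left with the same FPKM total (0.01 to -0.34 for all genes), and of these 12 lists ER translocation is the one that crosses 0 (0.38 to -0.03).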

How the data were processed

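Total RNA of fetal pancreas was sequenced at 4 stages, with 1 sample per stage in the labels. HISAT2 2.0.5 and mm10 are named per the submitters' processing notes, and neither counting tool nor annotation is given in the sources used here. The values are FPKM per Ensembl gene, deposited by the authors and named as averages per the file headers. Symbols and exon lengths came from GENCODE M21.

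Differences were computed as log2(FPKM + 1), where the pseudocount shrinks differences of low genes, with no scaling beyond the deposited one. Multiplied by exon length, the values decoded as whole reads of a pair of libraries (2 for each stage). The share of genes decoded was 96.3% to 96.5% of those tried, each by a pair of whole reads that gave the mean within 1 of its last printed place with at most 0.05 such pairs expected by chance. From 845 to 883 genes per stage had no such pair, and 685 to 923 had too many reads. The labels do not mention these libraries. The spread between libraries of a stage was 1.24 to 1.39 times counting error. Of the measured genes, 11168 split in all 8 libraries were tested with limma 3.58.1 (R 4.3.3), using a trend of variance on mean, a group per stage and Benjamini-Hochberg adjustment over all genes, and 2391 were not tested. The split and the tests were tested on simulated data.

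The members and gene lists were chosen with earlier results of these data known. Named genes are the 15 in each direction farthest from their nearer neighbour at 10 FPKM or more (without predicted genes, pseudogenes, histones and mitochondrial genes), up to 5 members per list by that difference, up to 5 by difference to the mean, up to 3 by level, and 5 markers. Not every such gene is described, and some members counted in the lists are not reported here by name. Ribosomal RNA genes, 6 lists, Mnx1, Pdx1, Igf2, Alb, Gatm, Ndufs1, Sdha, Csf1r, Ptprc, the genes nearest the limit and the genes named as holding a motif were chosen after their values were seen. Sharing of sequence was counted over all 50-base windows of GENCODE transcripts. Neither this sharing nor the overlap of exons is stated for every named gene. Promoter windows are from RefSeq. Alternatives covered scaling, pseudocount, fold, minimum, gene class and left-out libraries.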

Additional observations from a re-analysis of the deposited data

How the results depend on the processing

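The number of genes above and below both neighbours depended on the scaling and on the fold required: 80 and 430 with the same FPKM total, 150 and 187 with the same total without acinar enzymes, and 111 and 255 with the same estimated reads, a setting chosen after seeing the data, against 269 and 86. A pseudocount of 5 gave 153 and 28, a fold of 1.5 gave 849 and 390 and a fold of 3 gave 66 and 7, and a minimum of 10 FPKM left 57 genes below. The other settings, among them leaving out pseudogenes, small RNA and mitochondrial genes (208 and 83), kept both counts within 1.5 times. limma's calls became 1101 above and 3606 below with the same estimated reads. Leaving out each library in turn gave 1987 to 2235 above and 1584 to 1822 below. No paired analysis was possible because the labels give 1 sample per stage and the recovered libraries carry no replicate number.

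Depth limits the results at both ends: 2391 measured genes, which include the most abundant enzymes and hormones, have no test, and 3 reads over both libraries at E15.5 correspond to 0.129 FPKM for a gene with 1 kilobase of exon, for counting error only. With 2 unlabelled libraries per stage, differences between litters may be missing from the spread, and the stage cannot be told apart from the sample.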
